A study of Mus musculus with 16 samples.

Results

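The genes described here are targets of the coactivators YAP and TAZ, including the founding CCN proteins of the extracellular matrix, together with a transcription factor through which YAP and TAZ act. They were chosen as a list of 10 genes: Ccn1, Ccn2, Ankrd1, Amotl2, Axl, Ajuba, Crim1, Lats2, Tead1 and Ptpn14. Of these, 9 were measured, out of 17097 genes with a probe set of a single symbol, and all 9 were among the 14819 genes tested. Axl was not listed with a probe set in the annotation used and was not analysed here. Each gene was read from its probe set with the highest mean. All 16 samples were dermal fibroblasts of female C57Bl/6 mice, in 4 groups of 4 arrays: cultured cells of old mice (18 months), cultured cells of young mice (2 months), in vivo cells of old mice and in vivo cells of young mice. In vivo is the labels' term for cells profiled right after isolation, and each mouse gave a sample of either kind, although samples cannot be matched to mice from the labels. Each sample was RNA of 5000 cells amplified over 23 cycles, and the time in culture is not given in the sources used here. An effect of isolation itself, which all samples went through, cannot be told apart from the state in the skin.

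YAP and TAZ (gene Wwtr1) are transcriptional coactivators that enter the nucleus when cells spread on a stiff surface and bind DNA through TEAD factors. The Hippo kinases LATS1 and LATS2 phosphorylate them and keep them out of the nucleus. Several of their targets, such as Lats2, Amotl2 and Ptpn14, restrain YAP in turn and so form negative feedback. In skin, the secreted targets CCN1 and CCN2 are known from wound repair and fibrosis.

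TEAD factors recognise the letters CATTCC, which read GGAATG on the opposite strand. Promoter sequences from RefSeq (GRCm38.p6) were matched by gene ID for 8 of the 10 genes, all but Ccn2 and Tead1, as 9 windows of the 250 bases before an annotated start. The motif was searched on both strands and lay in 7 of the 9 windows, belonging to 7 of the 8 genes, against 12.6% of all 32817 promoter windows of that length. The genes were listed as YAP targets, so this share is not independent of how they were chosen. Ankrd1 and Ajuba each held 2 copies, and 2 or more copies lay in 1.02% of all windows. The windows of Ankrd1, Ajuba and Ccn1 are shown because they hold the motif in genes whose response to culture differed widely. Capitals mark the TEAD motif, and each is written 5′ to 3′ on the gene's strand, which is the minus strand in all of them. They lie at chr19:36119845-36120094, chr14:54577662-54577911 and chr3:145649986-145650235.
Ankrd1: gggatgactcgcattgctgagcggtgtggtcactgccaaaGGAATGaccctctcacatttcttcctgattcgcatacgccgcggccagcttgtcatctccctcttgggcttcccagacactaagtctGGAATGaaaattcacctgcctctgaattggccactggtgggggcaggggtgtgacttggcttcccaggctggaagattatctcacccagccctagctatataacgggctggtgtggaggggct
Ajuba: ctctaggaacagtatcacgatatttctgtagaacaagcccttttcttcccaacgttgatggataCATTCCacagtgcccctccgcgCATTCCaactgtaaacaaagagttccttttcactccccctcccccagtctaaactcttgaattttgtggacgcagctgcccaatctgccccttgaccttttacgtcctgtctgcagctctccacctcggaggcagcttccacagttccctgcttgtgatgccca
Ccn1: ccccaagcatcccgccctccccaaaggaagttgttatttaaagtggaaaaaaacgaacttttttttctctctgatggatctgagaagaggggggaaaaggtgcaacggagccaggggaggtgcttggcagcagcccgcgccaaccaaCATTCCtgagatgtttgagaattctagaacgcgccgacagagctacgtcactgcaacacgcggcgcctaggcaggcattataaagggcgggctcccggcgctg

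In Ankrd1, a gene of a cardiac ankyrin repeat protein, the copies began 210 and 123 bases before the start, both on the opposite strand. In Ajuba they began at 186 and 164 bases on the gene's own strand, and in Ccn1 the single copy began at 103 bases. Single copies also lay in the windows of Amotl2 (65 bases), Crim1 (79), Ptpn14 (146) and Axl (233), and neither Lats2 window held these letters. The AP-1 motif TGANTCA lay in 0 of the 9 windows and in 6.75% of all windows, and the CArG box of the factor SRF in 0 of the 9 and in 1.47% of all, so neither overlapped a TEAD motif. The GC content of these windows ranged from 44.8% (the Lats2 window at the downstream start) to 80.8% (Ptpn14), against a median of 52.4% over all windows. A motif match describes the sequence and does not show binding.

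**Figure D1:**
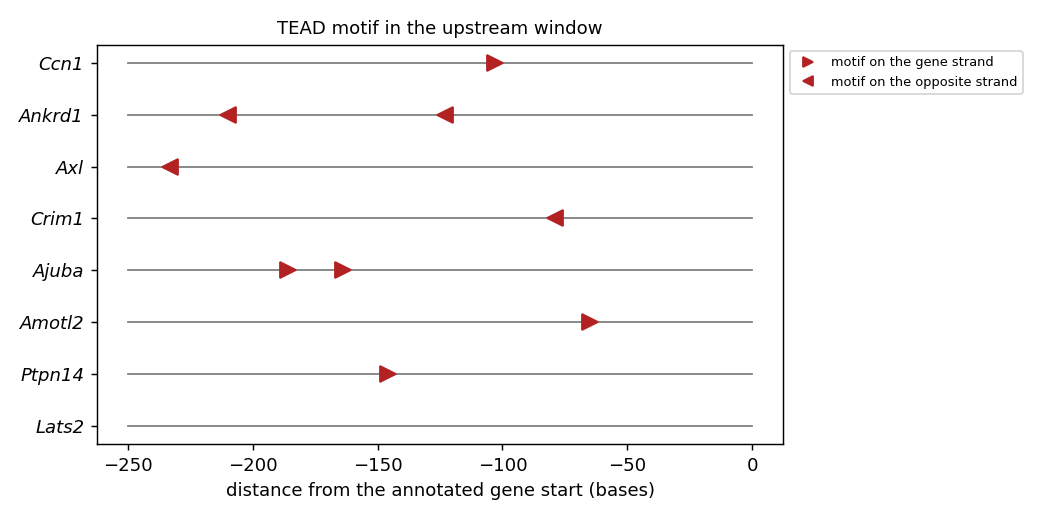
Position of the TEAD motif in the 250 bases before the annotated start of 8 genes, in bases from the start. Triangles pointing right are matches on the gene's strand and those pointing left on the opposite strand; 7 of the 8 genes held at least 1 match, and for Lats2 both annotated starts are drawn as a single empty line.

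The arrays were alike within a condition, with correlations of 0.987 to 0.996 among cultured arrays, 0.977 to 0.992 among in vivo arrays and 0.879 to 0.913 between the conditions. As a guide to background, the 95th percentile of 15 poly-A control probe sets was 4.27 (log2), called the control level here. Of 9 fibroblast markers, all were lower in cultured than in in vivo cells (median log2 change -1.28), against 44.7% of all tested genes. Collagen Col1a1 lay at 12.15 to 12.25 in cultured and 12.39 to 12.62 in vivo, while the receptor Pdgfra, near the control level, lay at 4.46 to 4.88 in cultured and 4.79 to 5.22 in in vivo arrays. Old in vivo replicate 1 stood apart in keratinocyte markers, with a summed linear intensity of 1288 over 8 genes, against 348 to 353 in the other old in vivo arrays, 290 to 338 in young in vivo arrays and 192 to 213 in cultured arrays. Its Krt5 value was 9.68, against 5.74 to 6.30 in the other in vivo arrays. Of 7 tested endothelial markers, 5 were lower in culture and 0 higher (median -0.24), against 44.7% and 34.8% of all tested genes. After cyclic loess, another scaling, 3 were lower and 1 higher (median -0.12). Their summed intensity was 113 to 140 in old and 126 to 130 in young cultured arrays. In vivo it was 293 to 631 in old and 236 to 328 in young arrays. Most of the in vivo sum came from the receptor genes Kdr and Tek. Kdr lay at 4.28 to 4.74 in cultured and 6.19 to 8.28 in in vivo arrays, and Tek at 3.56 to 4.91 and 5.59 to 7.81. The other markers, Pecam1 among them, lay near the control level, with in vivo means from 3.86 (Tie1) to 4.71 (Cdh5). A measure of RNA integrity also moved with culture: for beta-actin, the 3′ minus the 5′ probe set (log2) was 0.03 to 0.18 in old cultured, 0.03 to 0.13 in young cultured, -0.56 to -0.31 in old in vivo and -0.49 to -0.32 in young in vivo arrays. The part of endothelial cells or of RNA integrity in the culture differences given next was not tested. In such bulk samples, fewer cells of a type and less RNA per cell cannot be told apart.

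The main comparison asked how these genes differed between cultured and freshly isolated cells. The numbers in the sample titles form separate blocks for in vivo and cultured samples, and their meaning is not stated. An effect that follows these blocks cannot be told apart from that of culture. Of the 9 measured genes, 8 were higher in culture and 1, Ccn1, was lower, at an adjusted p of 0.05 in limma. Over all tested genes 34.8% were called higher and 44.7% lower. The same shares stand beside the counts of gene and marker lists given below for this comparison. The median log2 change of the 9 genes was 1.91, against -0.11 over all tested genes. The values of the 8 higher genes did not overlap between the conditions, which held for 45.1% of all tested genes. The smallest of these changes was 2.21-fold (Ptpn14), and 13.3% of all tested genes were called higher with at least a 2-fold change. Within each age, 8 of the 9 genes were called higher and 0 lower. Over all tested genes, limma called 62.8% in old mice (30.2% higher, 32.5% lower) and 71.2% in young mice (32.6% higher, 38.6% lower).

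Ccn2, known earlier as connective tissue growth factor, is a secreted matricellular protein that promotes collagen production. Its log2 intensities were 9.30, 9.11, 9.46 and 9.77 in old cultured cells and 9.38, 9.09, 9.80 and 9.56 in young cultured cells, against 4.99, 3.94, 4.45 and 4.21 in old in vivo cells and 4.06, 4.14, 3.98 and 4.43 in young in vivo cells. All cultured arrays lay more than 4 log2 units above the highest in vivo array, and 5 of the 8 in vivo arrays were below the control level. The log2 change was 5.16 ± 0.14 (SE, n = 8 per condition, adjusted p = 6.81e-15). Its in vivo values lay at or near background, so the size of this change is not well measured. The highest in vivo value, 4.99, came from the array with raised keratinocyte markers, and the change was 5.26 without that array.

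Ccn1, also called Cyr61, encodes the other CCN protein on the list and is at once a YAP target and a serum-induced immediate early gene. Its log2 intensities were 10.97, 10.84, 10.83 and 11.00 in old cultured cells and 10.84, 10.78, 11.05 and 11.07 in young cultured cells, against 11.05, 11.19, 11.28 and 11.20 in old in vivo cells and 11.18, 10.74, 11.30 and 11.33 in young in vivo cells. Signal was thus high in all 16 arrays, and the conditions overlapped. Ccn1 fell by 0.24 ± 0.08 on the log2 scale (SE, n = 8 per condition, adjusted p = 0.0157), with a 95% confidence interval of -0.41 to -0.06. The interval of Ccn2 was 4.86 to 5.46. The call of Ccn1 was not made within old (-0.27, adjusted p = 0.0546) or young mice (-0.20, adjusted p = 0.13) taken alone. Its other probe set gave -0.08 (adjusted p = 0.411), so the lower level in culture rested on 1 of 2 probe sets. Immediate early genes, the fast first wave of transcription after a stimulus, moved in the same comparison. Of 12 tested, 11 were lower in culture and 0 higher (median -2.02, against -0.11 over all tested genes). Among them Atf3 fell by 3.28 ± 0.09 on the log2 scale, Junb by 3.15 ± 0.10, Fos by 2.41 ± 0.07 and Btg2 by 2.23 ± 0.10. Their part in the high in vivo level of Ccn1 was not tested.

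**Figure D2:**
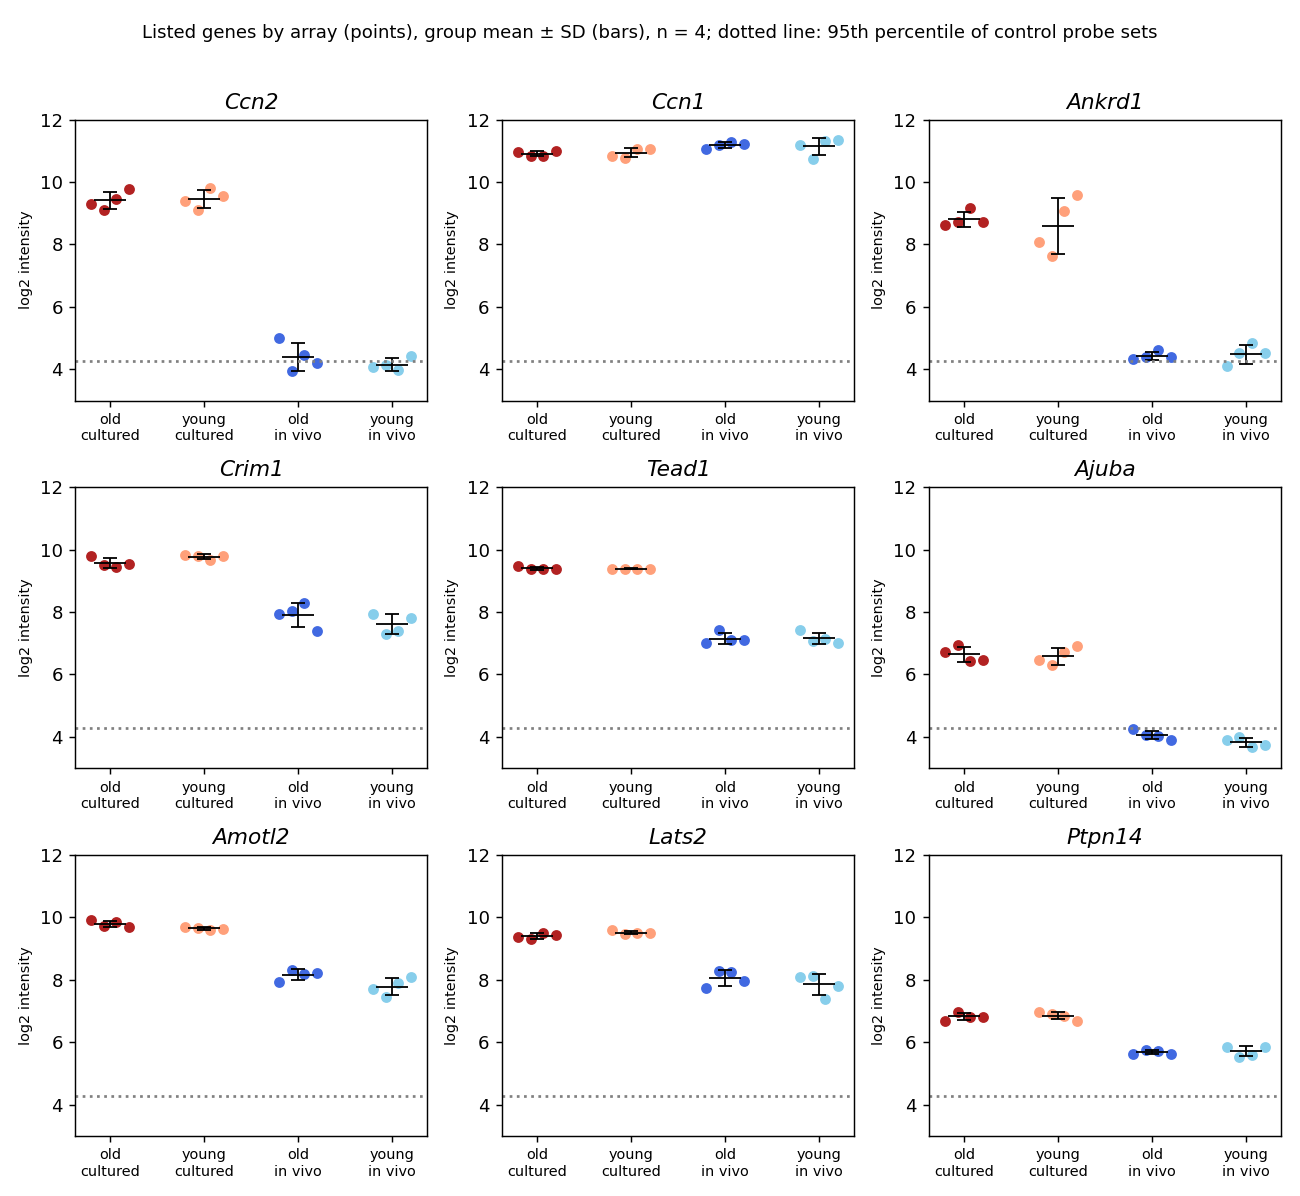
Log2 intensity of the 9 measured genes in each array (points), with group mean ± SD (black bars, n = 4); the dotted line is the control level of 4.27. Cultured groups lay above in vivo groups in every panel except that of Ccn1, whose 16 values lay between 10.74 and 11.33.

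Ankrd1, a nuclear and sarcomeric protein often used as a reporter of YAP activity, had the next largest change. It stood at 8.63, 8.71, 9.16 and 8.73 in old cultured cells and 8.08, 7.62, 9.07 and 9.59 in young cultured cells, against 4.34, 4.39, 4.63 and 4.39 in old in vivo cells and 4.09, 4.51, 4.83 and 4.51 in young in vivo cells. The young cultured arrays lay between 7.62 and 9.59, and their SD was 0.90, against 0.24 among old cultured arrays (n = 4 each). The log2 change was 4.24 ± 0.22 (adjusted p = 1.47e-11). A further probe set was below the control level in all 8 in vivo arrays and at least 19.7-fold above that level in culture. Ankrd1 is also a muscle gene, so muscle markers were examined beside it. Of 7 tested skeletal muscle markers, 1 was higher in culture and 4 were lower, against 34.8% and 44.7% of all tested genes. The higher gene was the actin Acta1 (8.45 to 10.03 in cultured and 4.29 to 5.02 in in vivo arrays). The other listed markers had means of at most 4.915 in either condition, near or below the control level. After scaling to the 75th percentile 6 were lower, and after cyclic loess 2 were higher and 3 lower. Creatine kinase Ckm lay at 4.42 to 4.60 in cultured and 4.74 to 5.06 in in vivo arrays. The fast myosin Myh4 was below the control level in all 16 arrays, at 3.60 to 3.88 in cultured and 3.63 to 3.97 in in vivo arrays. Of the 3 tested cardiac markers, 1 was higher in culture, the troponin Tnnt2 (5.35 to 8.93 in cultured, 4.11 to 4.78 in in vivo arrays), and 1 was lower. The summed linear intensity of the 9 skeletal markers was 501 to 1137 in old cultured, 1026 to 1197 in young cultured, 192 to 212 in old in vivo and 188 to 218 in young in vivo arrays. In cultured arrays most of this sum came from Acta1, so it does not speak for the other markers. The part of muscle-type cells in the Ankrd1 change was not tested.

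Crim1, a transmembrane protein whose cysteine-rich repeats bind bone morphogenetic proteins, was at 9.79, 9.51, 9.45 and 9.55 in old cultured cells and 9.82, 9.81, 9.66 and 9.79 in young cultured cells. It stood at 7.95, 8.03, 8.28 and 7.39 in old in vivo cells and 7.94, 7.29, 7.39 and 7.81 in young in vivo cells. Cultured cells were higher by 1.91 ± 0.12 (log2, adjusted p = 1.91e-10). The other probe set was below the control level in all 8 in vivo arrays and at least 7.45-fold above that level in culture.

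Tead1, the DNA-binding partner of YAP on this list, had 9.48, 9.39, 9.38 and 9.37 in old cultured cells and 9.39, 9.39, 9.39 and 9.37 in young cultured cells. In vivo it had 7.00, 7.41, 7.11 and 7.09 in old cells and 7.41, 7.07, 7.15 and 7.00 in young cells. The cultured arrays were nearly identical, and every one lay above every in vivo array. The log2 change was 2.24 ± 0.07 (adjusted p = 2.61e-14), or 4.72-fold.

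All 4 regulators on the list, Amotl2, Lats2, Ptpn14 and Ajuba, rose in culture. AMOTL2, an angiomotin that binds YAP and retains it in the cytoplasm, had transcript values of 9.90, 9.73, 9.85 and 9.70 in old cultured and 9.69, 9.67, 9.59 and 9.63 in young cultured cells, against 7.91, 8.32, 8.19 and 8.22 in old in vivo and 7.70, 7.44, 7.88 and 8.10 in young in vivo cells. Its log2 change was 1.75 ± 0.08 (adjusted p = 8.12e-12). The kinase gene Lats2 was at 9.37, 9.29, 9.50 and 9.44 in old cultured and 9.58, 9.45, 9.50 and 9.49 in young cultured cells, against 7.74, 8.28, 8.24 and 7.95 in old in vivo and 8.09, 8.13, 7.38 and 7.80 in young in vivo cells. Its change of 1.50 ± 0.10 (adjusted p = 7.82e-10) came from 1 of its 5 probe sets. The other probe sets gave 0.77 to 1.72, with no overlap between the conditions in any of them.

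Ptpn14, a phosphatase that binds YAP and limits its activity, stood at 6.68, 6.98, 6.82 and 6.81 in old cultured and 6.95, 6.90, 6.84 and 6.68 in young cultured cells, against 5.61, 5.74, 5.71 and 5.62 in old in vivo and 5.85, 5.53, 5.60 and 5.83 in young in vivo cells. Its log2 change of 1.15 ± 0.07 (adjusted p = 8.06e-11) was the smallest of the 8, and its other probe sets gave 0.79 and 1.35. Ajuba, a LIM protein of cell junctions that inhibits LATS kinases, was at 6.72, 6.96, 6.43 and 6.45 in old cultured and 6.45, 6.29, 6.71 and 6.90 in young cultured cells, against 4.24, 4.06, 4.03 and 3.90 in old in vivo and 3.89, 3.99, 3.68 and 3.75 in young in vivo cells. All 8 in vivo arrays were below the control level. Set against that level, Ajuba was at least 5.07-fold higher in culture (adjusted p = 2.48e-13), with measured means of 6.61 in cultured and 3.94 in in vivo cells.

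**Figure D3:**
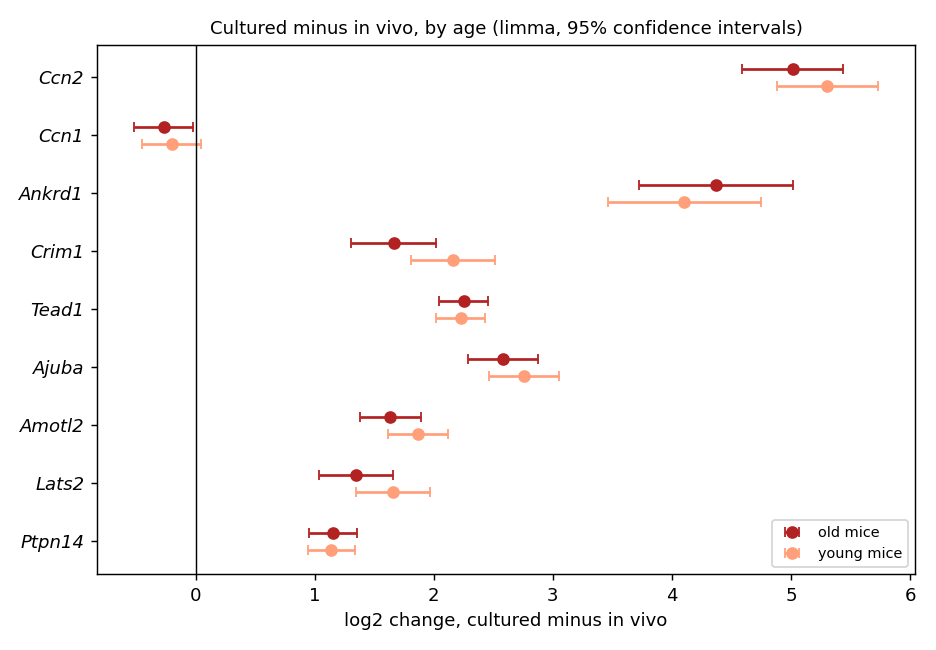
Log2 change of each gene, cultured minus in vivo, in old mice and in young mice (points, limma estimates; bars, 95% confidence intervals). In both ages 8 genes lay well above 0, the in vivo values of Ccn2 and Ajuba lay mostly or all below the control level, and the intervals of Ccn1 reached to either side of 0 in young mice (-0.45 to 0.05).

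The genes differed in how much they varied between arrays of a group. Within cultured cells Ankrd1 had a within-group SD of 0.66 (log2), larger than that of 99.1% of all tested genes, followed by Ccn2 (0.29, larger than 92.2%) and Ajuba (0.26, larger than 89.8%). Tead1 was the steadiest, with 0.04, and 0.9% of tested genes had a smaller value. In vivo the order was different, with Crim1 at 0.35, Ccn2 at 0.34 and Lats2 at 0.30 as the most variable and Ptpn14 at 0.12 as the least.

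The pattern of each gene over the 16 arrays was compared with those of all tested genes by the root mean square difference of mean-centred log2 values. Closest to Ccn2 were Rrm2 (0.32), Steap1 (0.33) and Cdca8 (0.36). Rrm2 is the regulated subunit of ribonucleotide reductase and Cdca8 a component of the mitotic chromosomal passenger complex. Closest to Ankrd1 were the centromere histone gene Cenpa (0.34), Tinagl1 (0.38) and Tes (0.39), and closest to Tead1 were Faim (0.15), Tstd3 (0.15) and Nuak1 (0.16). Closest to Crim1 was Gins2 (0.19), to Ajuba Dctd (0.20), to Amotl2 Pmpcb (0.17), to Lats2 Tent4b (0.11), to Ptpn14 BC004004 (0.09) and to Ccn1 1600014C23Rik (0.08). For the 8 genes that rose, this likeness is set largely by the size of the culture difference that all 16 arrays share.

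Of the other CCN genes, 1 of 4 was higher and 2 were lower (median 0.14, and -0.05 after scaling to the 75th percentile). Ccn3, whose protein is known to oppose CCN2 in cultured kidney mesangial cells, was at 4.51, 4.53, 4.01 and 4.12 in old cultured and 4.99, 4.74, 4.26 and 4.83 in young cultured cells, against 7.43, 8.79, 9.14 and 8.67 in old in vivo and 9.18, 9.00, 8.35 and 8.77 in young in vivo cells. It fell by 4.17 ± 0.20 on the log2 scale (adjusted p = 8.09e-12), a size limited by the cultured values, of which 3 of 8 were below the control level. Ccn4, a Wnt-induced member, was at 9.23 to 10.26 in cultured and 5.93 to 7.60 in in vivo arrays and rose by 2.64 ± 0.20. Ccn5 was at 8.56 ± 0.67 in cultured and 8.03 ± 0.73 in in vivo arrays (SD, n = 8 each), a difference of 0.53 ± 0.31 that did not pass (adjusted p = 0.122). Ccn6, the other gene called lower, lay below the control level in all arrays, so no change is given.

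Among 13 further YAP targets 7 were higher and 5 lower in culture (median 0.43, against -0.11 over all genes). F3, the tissue factor that starts coagulation, rose by 2.75 ± 0.33, and its value in the array with raised keratinocyte markers was 6.62, against 3.90 to 5.60 in the other in vivo arrays. Without that array the change was 3.04 ± 0.23. The exchange factor gene Dock5 rose by 2.32 ± 0.18. Nt5e, the ecto-enzyme that makes adenosine, fell by 3.11 ± 0.10 on the log2 scale, with cultured values near the control level (4.44 to 5.01). Igfbp3, an IGF-binding protein, fell by 2.60 ± 0.63 on the log2 scale, with 4.46 to 5.21 in cultured arrays and a wide 4.89 to 10.47 in in vivo arrays. Its highest value, 10.47, was again in the array with raised keratinocyte markers, and without it the gene fell by 1.98 ± 0.36 on the log2 scale. After cyclic loess, 6 of the 13 were higher and 6 lower.

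The coactivator genes differed from each other. Yap1 was at 9.39 to 9.58 in cultured and 8.54 to 9.14 in in vivo arrays, without overlap, and rose by 0.63 ± 0.06 (log2, adjusted p = 1.11e-07). Wwtr1, which encodes TAZ, was at 8.13 to 8.43 in cultured and 7.90 to 8.60 in in vivo arrays, a change of 0.01 ± 0.09 (adjusted p = 0.931). After cyclic loess Wwtr1 was instead called lower (-0.30). Of 8 genes for YAP, TAZ, the other TEAD factors and VGLL cofactors, 4 were higher and 2 lower (median 0.31). The shares over all tested genes were 34.8% and 44.7%. After cyclic loess 5 of these 8 genes were higher and 2 lower. Vgll2 lay below the control level in all arrays. Vgll3, a TEAD cofactor, rose by 1.57 ± 0.12, Tead2 by 0.84 ± 0.12 and Tead3 by 0.54 ± 0.08. RNA levels do not report where the proteins were in the cell.

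Of 14 tested Hippo kinases and upstream regulators, 9 were higher and 3 lower (median 0.60), against 34.8% and 44.7% of all tested genes. After cyclic loess 9 were higher and 4 lower (median 0.36). Among the lower genes, Sav1 fell by 0.42 ± 0.07 on the log2 scale. Nf2 had means of 6.90 in cultured and 7.25 in in vivo cells. The giant cadherin gene Fat1 rose by 1.29 ± 0.08, the MST1 kinase gene Stk4 by 1.17 ± 0.09, the scaffold gene Wwc1 by 1.13 ± 0.14 and the kinase gene Map4k4 by 1.09 ± 0.10. Lats1, the paralogue of Lats2, rose by 0.71 ± 0.07. Of 4 tested relatives of Amotl2, Ajuba and Ptpn14, Amot rose by 1.71 ± 0.25 and Wtip by 0.58 ± 0.06, while Amotl1 fell by 0.57 ± 0.06 on the log2 scale.

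Receptors that bind CCN proteins were mixed, with 5 of 9 tested genes higher and 3 lower (median 0.21, and -0.09 after cyclic loess, with 3 higher and 4 lower). The integrin gene Itga6 lay at 4.94 to 7.03 in cultured and 3.93 to 4.35 in in vivo arrays, 7 of 8 of which were below the control level. In old mice, where all 4 in vivo arrays were below it, Itga6 was at least 2.76-fold higher in culture. Itgav, the alpha-v subunit, rose by 1.52 ± 0.11, whereas Itgb5, a beta partner of alpha-v, fell by 1.39 ± 0.08 on the log2 scale and the endocytic receptor gene Lrp1 by 1.09 ± 0.05. Axl itself was not measured, but among its ligands and sister receptors 3 of 4 genes were lower (median -2.07). The ligand genes Gas6 and Pros1 fell by 2.14 ± 0.11 and 2.00 ± 0.08 on the log2 scale and the sister receptor gene Mertk by 2.70 ± 0.15. Cultured values of Mertk, 4.39 to 4.85, lay near the control level. Mertk is also a macrophage gene. Of 6 tested macrophage markers, 6 were lower in culture (median -0.44), against 44.7% of all tested genes. In old mice alone 4 of the 6 were lower. Adgre1 and Aif1 lay below the control level in all arrays, as did the cultured means of Lyz2 (4.125) and Fcgr3 (3.778). The summed intensity of the 7 listed markers was 202 to 229 in old and 201 to 261 in young cultured arrays. In vivo it was 406 to 570 in old and 416 to 760 in young arrays. The part of macrophages in the Mertk change was not tested.

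SRF and its actin-dependent coactivators also respond to cell tension and share targets with YAP. Of 9 tested genes of this list 8 were higher and 1 was lower (median 2.86), with Acta2, the smooth muscle actin of myofibroblasts, at 5.94 ± 0.12, Cnn1 at 5.10 ± 0.11 and Myl9 at 3.41 ± 0.14. Actg2 was at least 38.7-fold higher than the control level, below which all its in vivo arrays lay. In vivo values of Cnn1, 4.12 to 5.11, also lay near that level. Of 5 tested pericyte and smooth muscle markers, 1 was higher in culture (the myosin gene Myh11, by 4.36 ± 0.14) and 2 were lower. The lower genes were Kcnj8 (means of 4.18 in cultured and 7.70 in in vivo cells) and Des (4.94 and 5.76). The summed intensity, which mixes these opposite changes, was 327 to 502 in old cultured, 593 to 880 in young cultured, 314 to 557 in old in vivo and 251 to 316 in young in vivo arrays. The part of such cells was not tested. The counts of the listed genes, of the SRF genes and of the other CCN genes were the same under both scaling alternatives, although scaling to the 75th percentile moved the median of all tested genes to -0.31, with 27.8% called higher and 57.8% lower.

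**Figure D4:**
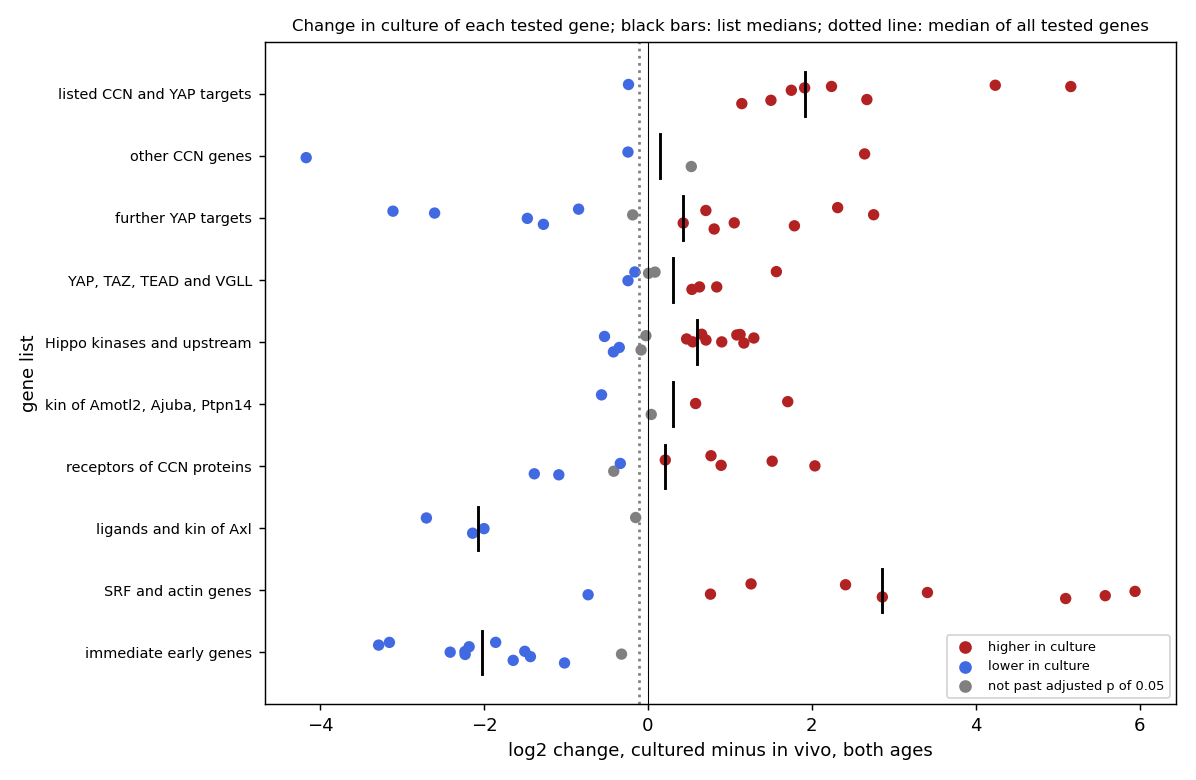
Log2 change in culture (cultured minus in vivo, both ages) of every tested gene of the listed YAP targets and of the related lists; colours give the limma call, black bars the list medians and the dotted line the median of all tested genes, -0.11. The listed genes had a median of 1.91, the SRF and actin genes 2.86, and the immediate early genes -2.02.

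The next comparisons asked whether old and young cells differed. In cultured cells 0 of the 9 genes passed, and limma called 0% of all 14819 tested genes, with 533 genes at an unadjusted p under 0.05. The log2 differences, old minus young, lay between -0.20 (Crim1, unadjusted p = 0.0453, adjusted p = 0.997) and 0.22 (Ankrd1). Amotl2 was the only gene of the 9 whose values did not overlap, with 9.70 to 9.90 in old and 9.59 to 9.69 in young cultured cells, which held for 2.06% of all tested genes. Its difference was 0.15 ± 0.07 (unadjusted p = 0.0495, adjusted p = 0.997). The 95% confidence intervals of Ccn2 and Ccn1 were -0.44 to 0.34 and -0.22 to 0.17, and that of Ankrd1 was -0.63 to 1.07, which reaches past a 2-fold difference.

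In in vivo cells 0 of the 9 genes passed in limma, against 1.35% of all tested genes (0.911% higher, 0.439% lower), and 1 of the 9 had an unadjusted p under 0.05. That gene was Amotl2, higher in old cells by 0.38 ± 0.15 (unadjusted p = 0.0281, adjusted p = 0.254), with means of 8.16 ± 0.18 in old and 7.78 ± 0.28 in young cells (SD, n = 4 each). The values of 0 of the 9 genes were free of overlap between the ages, against 8.53% of all tested genes. Ccn2 did not pass (adjusted p = 0.629), and no size is given, since 2 of 4 old and 3 of 4 young in vivo arrays were below the control level. Ccn1 differed by 0.04 ± 0.14, with an interval of -0.26 to 0.35. No fold is given for Ajuba, which was below the control level in both groups. Of the related gene lists, 1 gene passed in an age comparison, the AP-1 gene Jun, 1 of 12 tested immediate early genes. The share over all tested genes was 1.35%, so 1 call among all these lists is not set apart from it. Jun was at 10.01, 10.04, 10.46 and 9.92 in old in vivo cells, against 10.63, 10.81, 10.89 and 10.71 in young in vivo cells. It fell by 0.65 ± 0.13 on the log2 scale in limma (adjusted p = 0.0438, close to the threshold of 0.05), without overlap. Single markers of some cell types were called in the same comparison. The macrophage receptor gene Csf1r fell by 1.08 ± 0.15 on the log2 scale (1 of 6 tested macrophage markers called), with summed macrophage markers of 406 to 570 in old and 416 to 760 in young in vivo arrays. The collagen gene Col1a2 fell by 0.64 ± 0.13 (1 of 9 fibroblast markers called), and the pericyte gene Kcnj8 rose by 1.06 ± 0.22 (1 of 5 called). The medians of these lists, old minus young, were 0.006 (macrophage), -0.035 (fibroblast) and -0.12 (pericyte and smooth muscle), against 0.015 over all tested genes. On the last list, Rgs5, Myh11 and Notch3 lay near the control level in both groups. Its summed intensity was 314 to 557 in old and 251 to 316 in young in vivo arrays. Single macrophage markers differed in direction. Means in old and young in vivo cells were 8.10 and 8.09 for Cd68, 5.248 and 5.085 for Lyz2 and 4.882 and 4.605 for Cd14. They were 6.455 and 7.53 for Csf1r and 3.938 and 4.478 for Fcgr3. Adgre1 and Aif1 lay below the control level in both groups. The part of these cell types in the Jun difference was not tested.

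The interaction, the age difference in culture minus that in vivo, was called for 0 of the 9 genes by limma, with 0 at an unadjusted p under 0.05, against 0.587% of all tested genes called. The largest was Crim1 (-0.50 ± 0.24, unadjusted p = 0.0504, adjusted p = 0.408), whose old minus young difference was -0.20 in culture and 0.31 in vivo. The 95% confidence intervals were -0.90 to 0.31 for Ccn2 and -0.65 to 1.18 for Ankrd1.

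**Figure D5:**
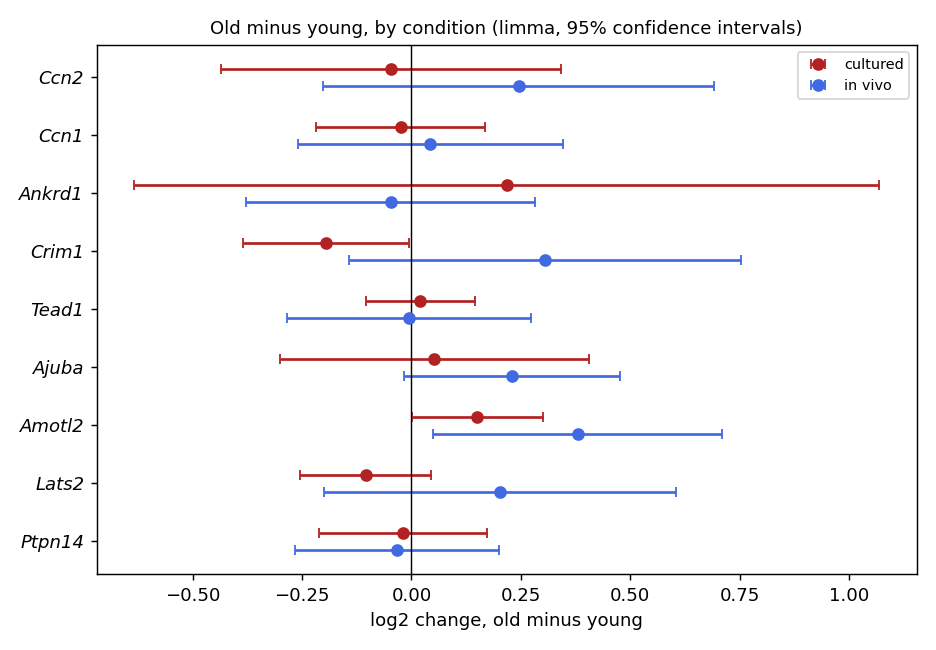
Log2 difference between old and young mice (old minus young) of each gene in cultured and in in vivo cells (points, limma estimates; bars, 95% confidence intervals). No difference passed the adjusted threshold; Ankrd1 in culture had the widest interval, from -0.63 to 1.07.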

How the data were processed

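Affymetrix mouse array values of 16 samples were used as deposited. The deposited log2 intensities were made with tools listed as affy and RMA, per the submitters' processing notes, without versions; no base is stated, and log2 was inferred from the values. RMA equalises arrays and narrows changes of dim genes. Of 45141 probe sets, 28898 had 1 symbol, 551 several and 15692 none listed; symbols were updated by gene ID through RefSeq GRCm38.p6 (28689 probe sets). Each gene was its probe set of highest mean, tested if at least 4 arrays exceeded 3.87, the 25th percentile. Culture comparisons and the interaction were fitted with limma 3.58.1 (R 4.3.3) to all 16 arrays, and age comparisons to the 8 arrays of a condition, because the median residual SD was 0.129 in cultured and 0.185 in in vivo arrays. P-values were two-sided and Benjamini-Hochberg adjusted over 14819 genes at 0.05; the steps were tested on simulated data. The number of arrays limits the precision. Named were all listed genes, and per related list up to 4 called genes of largest change, any gene called with age, the tested genes most alike in pattern, and Yap1, Wwtr1 and Lats1; Ccn5 and single marker genes were named after their values were seen. Alternatives changed the filter, scaling, probe set, variance model and samples in the fit. Genes and lists were chosen with earlier results of these data known. Cultured and in vivo samples came from the same mice, untied by the labels, so the fits are unpaired.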

Additional observations from a re-analysis of the deposited data

Results flagged for a closer look

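In a check of 36 groups of 4 arrays (9 genes in 4 groups) for a value far from the others, 1 stood out: Tead1 in young cultured cells, where the lowest array was 9.37 and the other arrays were all 9.39. The gap is 0.02 on the log2 scale, close to the rounding of the deposited values. Chance gives about 1 such value in 20 groups.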

How the results depend on the processing

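No paired analysis was possible because the labels do not tie cultured and in vivo samples to mice and carry no replicate numbers of their own. The 8 higher calls in culture were made again under every alternative in which all 9 genes could be fitted, at either age and without any single array. With the gene's second highest probe set, where 5 genes and 5883 genes in all could be fitted, 4 were higher and 0 lower for culture over both ages, 4 higher in old and 4 higher in young mice; all genes called were then 4547, 3761 and 4064 in these comparisons, 51 for age in vivo and 33 for the interaction, as fewer genes were tested. Ccn1 decided the lower calls. Over both ages it was not called with the mean over probe sets (0 lower, adjusted p = 0.0819). In old mice it was called (1 lower) after scaling to the 75th percentile (-0.43), cyclic loess (-0.53), trend and robust eBayes and with only the 8 arrays of that age, and in young mice (1 lower) after scaling (-0.44) and cyclic loess (-0.54). Leaving out arrays gave 0 to 1 lower calls in old mice (1 without old in vivo replicate 1, young in vivo replicate 2 or young in vivo replicate 3) and 0 to 1 in young mice (1 without young in vivo replicate 2). No age or interaction call appeared for any of the 9 genes. Over all genes, age in vivo gave 900 calls with all 16 arrays in 1 fit and 60 to 306 without each in vivo array, against 200; the interaction gave 44 to 200 without an array, against 87. The cause of these shifts was not tested. In vivo values near the control level limit the size of the changes of Ccn2, Ankrd1, Ajuba, Itga6, F3, Cnn1, Actg2 and Myh11. Cultured values near it limit those of Ccn3, Mertk, Nt5e and Igfbp3.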

Other observations

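Whether the 9 genes varied together between arrays of a condition was asked after seeing the data, over 72 pairs (36 pairs in 8 cultured and in 8 in vivo arrays), with exact permutation tests over 40320 orderings. Ccn1 and Ccn2 had the smallest exact p for Pearson's r, which was 0.767 among cultured arrays (exact p = 0.0367, adjusted p = 0.833). Without the 2 arrays farthest from the median of Ccn1, r was 0.681. Their Spearman's rho was 0.743 (exact p = 0.0416, adjusted p = 0.857). For rho, the smallest exact p was that of Ccn2 and Tead1 in vivo (rho of -0.771, exact p = 0.0331, adjusted p = 0.857). By exact permutation of Pearson's r, 2 of the 72 pairs had an unadjusted p under 0.05 and 0 passed the adjustment.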
